A study of Mus musculus with 12 samples.

Results

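The epidermal differentiation complex is the stretch of mouse chromosome 3 that holds the genes of the cornified envelope, and 49 of its genes were followed here, out of 21631 protein-coding genes annotated on chromosomes 1 to 19 and X. The members were chosen by name and comprised 7 genes of the fused S100 type, 21 late cornified envelope (Lce) genes, 6 small proline-rich (Sprr) genes, 13 S100a genes, and Ivl and Lor. By RefSeq coordinates on GRCm38 (mm10), the members ran from S100a1 to S100a10, chr3:90511034-93564645, a span of 3.05 Mb with 70 protein-coding genes in all.

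The mark measured was trimethylation of histone H3 at lysine 27 (H3K27me3), mapped on suspended cells of female mouse epidermis with CUT&RUN, in which an antibody guides a nuclease that frees the chromatin around the mark. Per the labels, the WT animals carried Utx fl/fl without Cre, and the Utx-cKO animals carried Utx fl/fl with Cre, which under the Krt14 promoter deletes Utx (Kdm6a) in keratin-14 expressing tissues. Both groups therefore share the floxed alleles, and cells of the epidermis that never expressed keratin 14 keep Utx in either group. Age was not given. The labels list 3 H3K27me3 libraries and 3 IgG libraries per genotype, but the deposited peaks form 1 list per genotype, merged over animals, with 7826 peaks in WT and 8914 in Utx-cKO. No value below therefore has a replicate error or a test between genotypes, and sequencing depth is unknown.

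As background, the cornified envelope is the protein shell that replaces the plasma membrane of keratinocytes in the outermost epidermis. Its proteins are made late in differentiation and are crosslinked by transglutaminases. H3K27me3 is deposited by Polycomb repressive complex 2, is found over genes that a cell keeps silent, and is removed by demethylases such as Utx, which also acts without its catalytic activity. The comparison asks whether the mark lies differently over these differentiation genes when Utx is missing. Because the epidermis is a mixture of cells, a mark in fewer cells and a weaker mark per cell cannot be told apart. Of 10 keratinocyte marker genes, among them Krt5, Krt14, Krt1 and Krt10, none (0 of 10) was marked in either list. Of 6 T cell genes 3 (Cd3d, Cd3e and Cd3g), of 8 melanocyte genes 3 (Dct, Sox10 and Kit), of 4 Langerhans cell genes 1 (Cd207), and of 6 fibroblast and endothelial genes 3 (Col1a1, Vim and Pdgfra) were marked in both lists. The background by the same rule, a peak no more than 2 kb from either gene end, was 14.4% of autosomal protein-coding genes in WT and 15.7% in Utx-cKO. The lists hold few genes each, and whether any of them departs from that background was not tested.

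H3K27me3 lay at 3 places of the complex in both genotypes: around S100a9, at the first 4 Lce3 genes, and at Tchh. The extent of the peaks differed between the lists, and the WT list had no peak over Lce3b or over the start of Tchh. Main components of the envelope in normal epidermis, such as Lor, Ivl, Flg and the Sprr and Lce1 genes, lay over 50 kb from any peak in either list. The median autosomal protein-coding gene lay 116 kb from a peak in WT and 98.5 kb in Utx-cKO. A distance over 50 kb therefore does not set these components apart. The marking rule asked for a peak no more than 2 kb away from the start or the end of the annotated gene. By that rule the WT list marked 6 members and the Utx-cKO list the same 6, namely S100a9, Lce3a, Lce3b, Lce3c, Lce3d and Tchh. This was 12.2% of the 49 members in each list (exact Clopper-Pearson 95% interval 4.63 to 24.8%, counting error only, for genes that partly share peaks). Among all autosomal protein-coding genes the same rule marked 14.4% in WT and 15.7% in Utx-cKO, so the share of members was near the background and says nothing particular about them. Of 20665 such genes, 12.8% were marked in both lists.

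**Figure D1:**
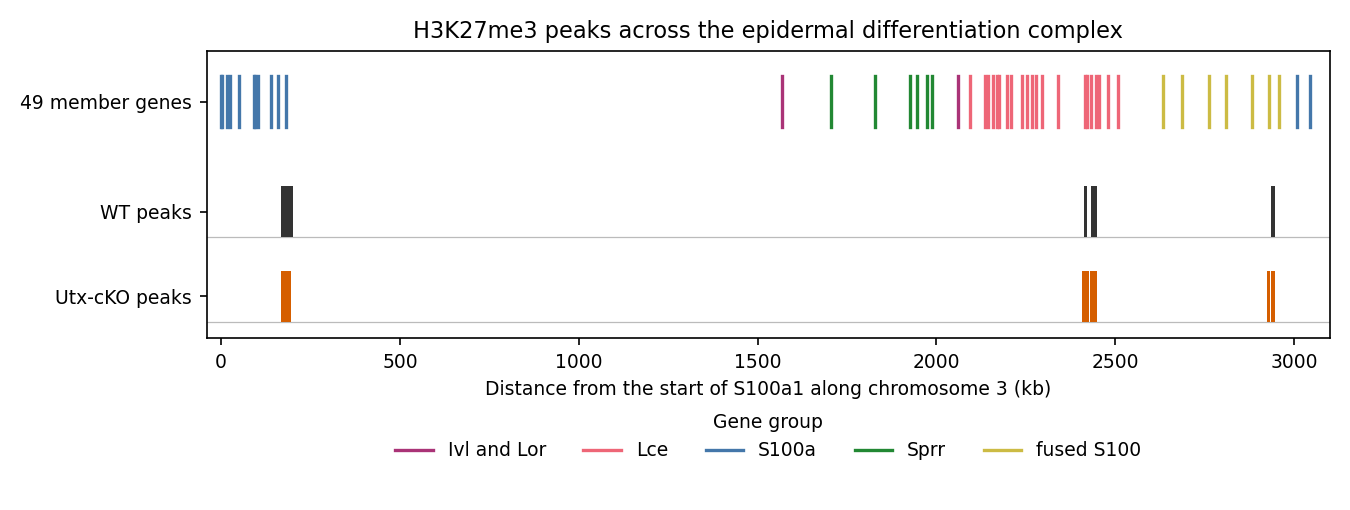
Members (top row, ticks coloured by gene group) and H3K27me3 peaks of the WT and Utx-cKO lists (boxes to scale) against distance from the start of S100a1 in kb. Peaks of both lists lie at 3 places, and the stretch of 2.21 Mb between the first and the second place is empty in both.

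By total signal, the 4 WT peaks and the 5 Utx-cKO peaks of the span ranked from low to somewhat above the middle of their lists. Total signal is the coverage summed over a peak and maximum signal the highest coverage in it, both being the peak caller's own values on a scale that no label or header states, so that each was ranked within its own list only. The total signals of the WT peaks exceeded between 11.2% and 64.5% of the WT list. Those of the Utx-cKO peaks exceeded between 9.13% and 67.7% of the Utx-cKO list. These ranks took in the peaks of all chromosomes. Maximum signals ran from 10.4 to 15.8 in WT and from 10.7 to 16.6 in Utx-cKO. The median over autosomal peaks was 16.9 in WT and 14.99 in Utx-cKO.

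All 4 WT peaks had a Utx-cKO counterpart, and 4 of the 5 Utx-cKO peaks had one in WT. Across the autosomes, 12.1% of WT peaks and 22.5% of Utx-cKO peaks overlapped no peak of the other list. The exception in the complex was the Utx-cKO peak over the start of Tchh.

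Among the S100a genes, which encode small calcium-binding proteins, 1 of 13 was marked. S100a9 (chr3:90692630-90695721, minus strand) encodes a subunit of calprotectin, a protein abundant in neutrophils and induced in inflamed epidermis. In WT its peak was chr3:90678401-90711050, 32650 bp wide, with a total signal of 102468, above 64.5% of the list, and a maximum signal of 10.4. In Utx-cKO the peak was chr3:90678901-90707750, 28850 bp wide, with a total signal of 94788, above 65.2% of the list, and a maximum signal of 10.7. Both peaks covered the whole gene and its start. The highest signal lay on the upstream side of the S100a9 start, 1504 bp from it in WT and 579 bp in Utx-cKO. The Utx-cKO peak was the narrower one, at 0.884 times the WT width, and lay wholly inside the WT peak.

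S100a8, which encodes the other subunit of calprotectin, was not marked, although it is the neighbour of S100a9. The nearest peak began 8.37 kb beyond the gene in WT and 8.87 kb in Utx-cKO. S100a7a, related to human psoriasin, lay 20.3 kb from the peak in WT and 20.8 kb in Utx-cKO. The other 8 genes of this block, S100a1, S100a3, S100a4, S100a5, S100a6, S100a13, S100a14 and S100a16, lay between 64.0 and 164 kb from a peak in WT and between 64.5 and 165 kb in Utx-cKO. S100a11 and S100a10, at the far end of the complex, encode partners of annexins. S100a11 was 61.7 kb from a peak in WT and 62.4 kb in Utx-cKO, and S100a10 79.4 kb and 97.0 kb. For S100a10 these were different peaks on opposite sides. The nearest WT peak lay beyond the complex, near Tdpoz2, without a Utx-cKO counterpart, and the nearest Utx-cKO peak lay at Tchh.

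Among the late cornified envelope genes, the marked ones were all Lce3 genes. Of 6 Lce3 genes 4 were marked in both lists (exact 95% interval 22.3 to 95.7%). Of 14 Lce1 genes 0 were marked (0 to 23.2%), and Lce6a was not, beside 14.4% of all autosomal protein-coding genes in WT and 15.7% in Utx-cKO. These intervals treat genes as independent, but neighbours share peaks or their absence. All Lce1 genes except Lce1m lay in the same peak-free stretch in both lists. The intervals therefore cannot tell whether either subfamily departs from the background, and the difference between subfamilies was not tested. Lce proteins are incorporated late into the envelope, and Lce3 genes are known in human skin for being low in healthy epidermis and induced after barrier injury and in psoriasis. Because these genes are neighbours, the 4 marked genes rested on 2 peaks per list.

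The first Lce3 peak was wider in Utx-cKO. In WT it was chr3:92922851-92932650, 9800 bp wide, with a total signal of 44291, above 11.2% of the list, and a maximum signal of 10.6. In Utx-cKO it was chr3:92917351-92938900, 21550 bp wide, with a total signal of 101331, above 67.7% of the list, and a maximum signal of 14.99. The Utx-cKO peak held the WT peak whole and reached 5500 bp further on the side of Lce1l and 6250 bp further on the side of Lce3c. Its width was 2.20 times that of the WT peak. Among 4534 autosomal pairs in which 1 WT peak overlapped 1 Utx-cKO peak and no other, the median ratio of widths was 0.997 (interquartile range 0.821 to 1.20), and 4.52% of pairs reached a ratio of 2. The first Lce3 pair was 1 of 4 such pairs in the complex and the one that did. The fold of 2 was set after its widths were seen.

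Both genes at this peak were called marked in each list, but differently placed. Lce3a (chr3:92925287-92926230, minus strand) was covered over its whole length in WT and in Utx-cKO. Lce3b (chr3:92932979-92934096, plus strand) began 329 bp beyond the border of the WT peak and was wholly covered by the Utx-cKO peak. With an overlap of gene and peak required, Lce3b was marked in Utx-cKO alone, which left 5 marked members in WT against 6 in Utx-cKO. By overlap, the WT list marked 14.1% of autosomal protein-coding genes and the Utx-cKO list 15.3%. The share of such genes overlapped in Utx-cKO alone was not computed, so the call at Lce3b has no background to set it against.

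The second Lce3 peak ended at the same base in both lists. In WT it was chr3:92944251-92960800, 16550 bp wide, with a total signal of 84287, above 55.9% of the list, and a maximum signal of 15.8. In Utx-cKO it was chr3:92941601-92960800, 19200 bp wide, with a total signal of 98428, above 66.7% of the list, and a maximum signal of 16.6. The Utx-cKO peak thus began 2650 bp earlier and was 1.16 times as wide. Lce3c (chr3:92944486-92945730) and Lce3d (chr3:92957390-92958574), both on the plus strand, were covered over their whole length in both lists. In WT the highest signal lay 2089 bp from the start of Lce3c, and in Utx-cKO 385 bp from that of Lce3d.

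The peak-free interval between both Lce3 peaks was 11.6 kb in WT, with Lce3b inside it, and 2.7 kb in Utx-cKO, with no gene inside. Beyond the second peak the mark stopped short of the remaining Lce3 genes in both lists. Lce3e began 6.26 kb and Lce3f 31.4 kb from the peak, the same distances in WT and Utx-cKO. The Lce1 genes, whose products are expressed in normal epidermis, were 57.0 to 275 kb from a peak in WT and 57.0 to 269 kb in Utx-cKO. Lce6a was 301 kb away in WT and 296 kb in Utx-cKO.

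**Figure D2:**
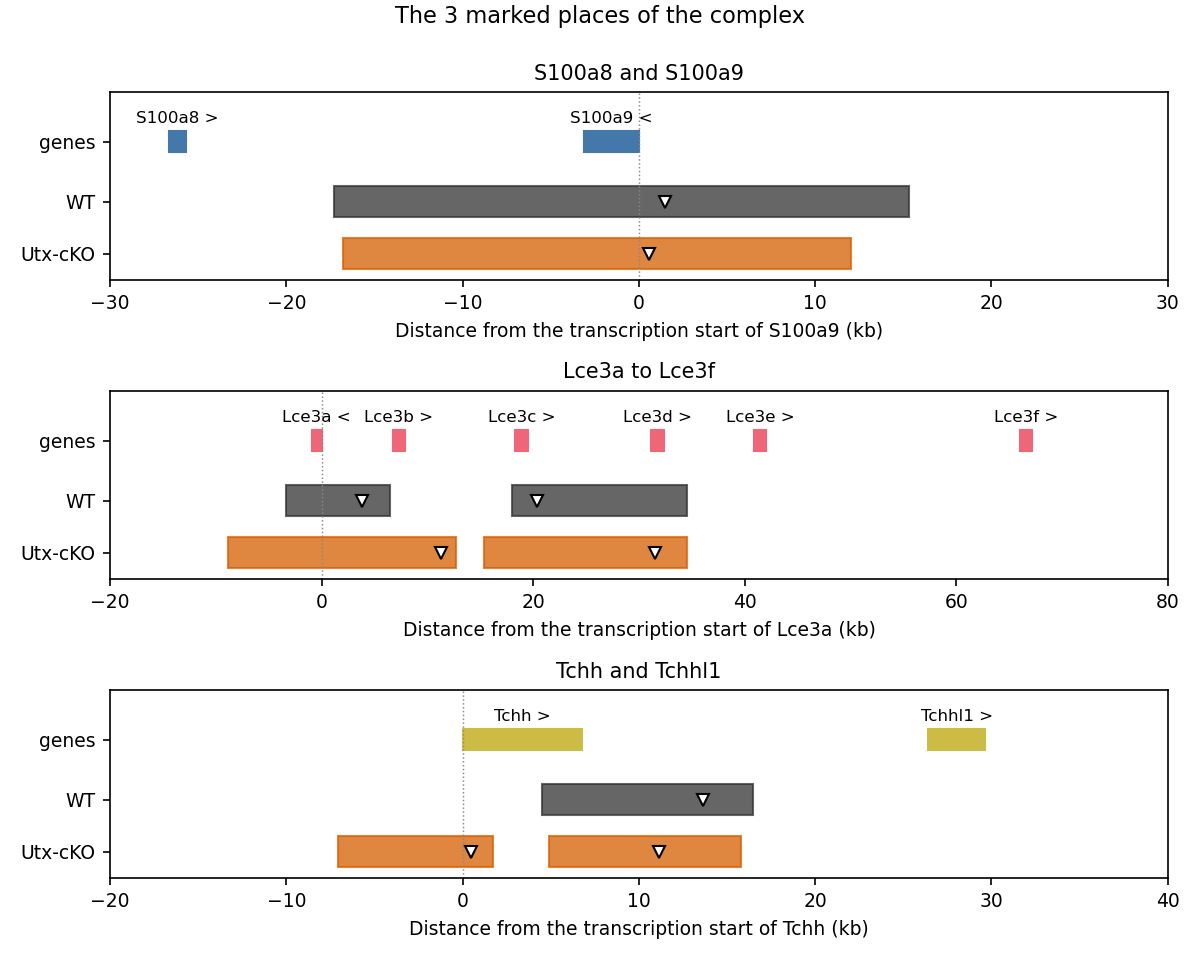
Peaks of both lists (boxes) at S100a9, the Lce3 genes and Tchh, against distance in kb from the transcription start named under each panel. Angle brackets give the direction of transcription where known, and white triangles mark the place of highest signal in each peak. The Utx-cKO peak at Lce3a and Lce3b is 21550 bp wide against 9800 bp in WT, and a Utx-cKO peak alone lies over the start of Tchh.

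Among the fused S100 genes, whose products join an S100 domain to long repeats, Tchh was marked and the other 6 were not. Tchh (chr3:93442330-93449077, plus strand) encodes trichohyalin, a structural protein of the inner root sheath of the hair follicle. In WT it had 1 peak, chr3:93446801-93458800, 12000 bp wide, with a total signal of 44979, above 12.9% of the list, and a maximum signal of 12.2. That peak covered the last 33.7% of the gene and ran on past its end, and it lay 4471 bp from the transcription start. In Utx-cKO a closely matching peak, chr3:93447251-93458100, was 10850 bp wide with a total signal of 55824, above 40.02% of the list, and a maximum signal of 11.5.

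The Utx-cKO list held a further peak over the start of Tchh, chr3:93435251-93444050, that overlapped no WT peak. It was 8800 bp wide, with a total signal of 38790, above 9.13% of the list, and a maximum signal of 11.8 that lay 495 bp from the start. Together both peaks covered 52.6% of the gene. Its total signal was below 40307, the lowest of any WT peak, whereas the Utx-cKO list reached down to 35753. Whether a WT domain of that strength could have been listed was not tested, since no label or header gives the thresholds of the peak caller. With peaks kept only at or above 40307, which assumes that the lists share a scale, this peak was lost.

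With a peak required within 2 kb of a transcription start, Tchh was marked in Utx-cKO alone. Of 46 members with a start in the reference table, the WT list then marked 5 and the Utx-cKO list 6. The same rule marked 12.0% of 16457 autosomal genes in WT and 13.0% in Utx-cKO. In Utx-cKO alone it marked 2.41% of them, and in WT alone 1.41%. A single such gene among the members is near that background.

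The filaggrin-type genes had no peak nearby in either list. Flg, whose product is filaggrin, which aggregates keratin filaments and is broken down to natural moisturizing factor, lay 153 kb from a peak in WT and 142 kb in Utx-cKO. Flg2 lay 225 kb away in WT and 214 kb in Utx-cKO, and Hrnr, which encodes hornerin, 113 kb and 102 kb. Rptn, which encodes repetin, was 47.4 kb from a peak in WT and 35.8 kb in Utx-cKO. For Flg, Flg2, Hrnr and Rptn the nearest Utx-cKO peak was the weak peak at the Tchh start that is listed in Utx-cKO alone. Their shorter distances in Utx-cKO rest on that peak. Crnn, which encodes cornulin, was 184 kb from a peak in both. Tchhl1, the neighbour of Tchh, was the unmarked fused S100 gene nearest to a peak, at 9.95 kb in WT and 10.7 kb in Utx-cKO.

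The envelope precursors and the Sprr genes lay in the emptiest part of the complex. Lor, which encodes loricrin, the most abundant envelope protein, was 840 kb from a peak in WT and 834 kb in Utx-cKO, the farthest of all members in both lists. Ivl, which encodes involucrin, an early scaffold of the envelope, was 349 kb away in WT and 344 kb in Utx-cKO. The 6 Sprr genes, whose proteins bridge other envelope proteins, lay 422 to 700 kb from a peak in WT and 417 to 695 kb in Utx-cKO. Sprr4 was the nearest of them and Sprr2a1 the farthest. For Lor, Ivl, the Sprr genes, Lce6a and all Lce1 genes except Lce1m, the nearest peak in both lists was the first Lce3 peak. Their shorter distances in Utx-cKO all rest on the border of that peak, which reached 5500 bp further there. The median distance over all 49 members was 144 kb in WT and 138 kb in Utx-cKO, in both lists that of Lce1i. Over all autosomal protein-coding genes the median distance was 116 kb and 98.5 kb.

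**Figure D3:**
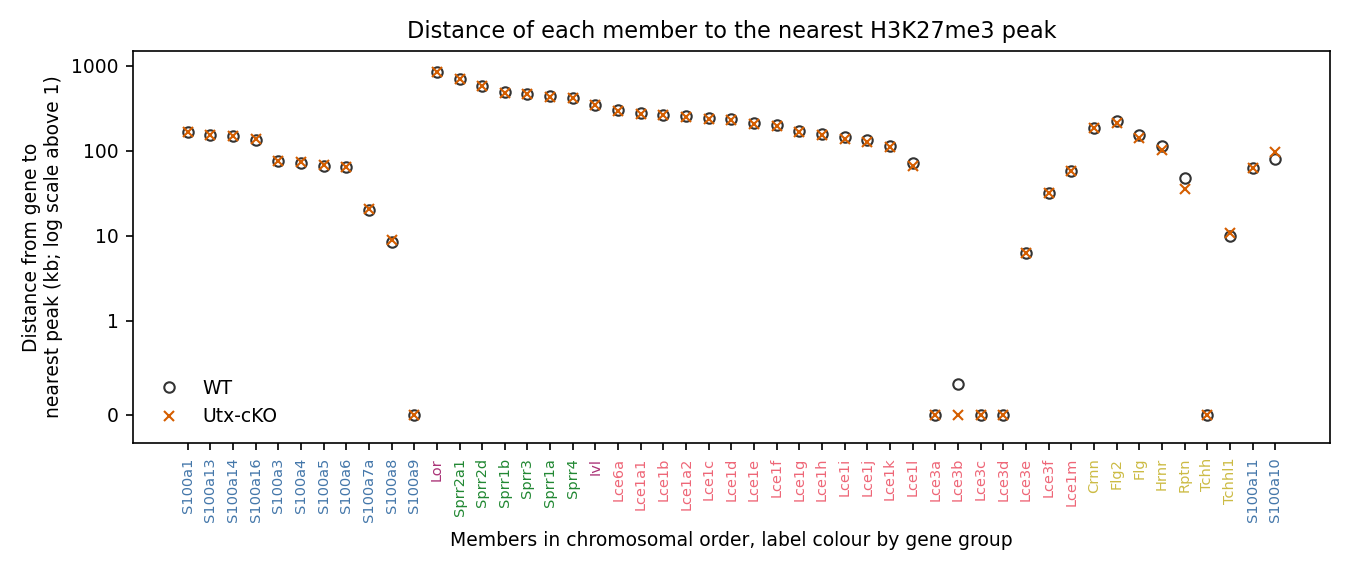
Distance in kb from each member to the nearest peak of the WT list (circles) and the Utx-cKO list (crosses), with members in chromosomal order and 0 where a peak overlaps the gene; the axis is linear up to 1 kb and logarithmic above. The 6 marked members sit at or near 0, and Lor is the farthest, at 840 kb in WT and 834 kb in Utx-cKO.

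The empty stretch ran from the S100a9 peak to the first Lce3 peak. It measured 2.21 Mb in both lists and held 22 members, from Lor to Lce1l, and 40 protein-coding genes in all. Of 6107 peak-free intervals between autosomal peaks in WT, 197 (3.23%) were wider, and 50 held at least 40 protein-coding genes. In Utx-cKO 177 of 7014 intervals (2.52%) were wider and 43 held as many genes. The median interval was 84.9 kb in WT and 66.4 kb in Utx-cKO. A second empty stretch, between the Lce3 and Tchh peaks, measured 486 kb in WT and 474 kb in Utx-cKO and held 8 members, from Lce3e to Rptn.

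Other genes of the complex gave no further marked gene. A list of 21 symbols held the remaining Sprr2 genes, Lelp1, Prr9, Smcp, Kprp, Crct1, Pglyrp3, Pglyrp4, S100a7l2 and 3 Lce symbols. Of these, 18 were matched in the annotation and 0 were marked in WT or Utx-cKO. The span held 5 further protein-coding genes, of which 0 were marked in either list. Over the whole span, 6 of 70 protein-coding genes (8.57%) were thus marked in each list. On chromosome 3 the same rule marked 15.6% of 983 protein-coding genes in WT and 17.9% in Utx-cKO. This difference was not tested, and neighbouring genes share peaks or their absence.

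Peaks covered 71.0 kb of the complex in WT and 89.25 kb in Utx-cKO, which is 2.33% and 2.92% of its length, a difference of 18.25 kb. The lists had 66.05 kb in common, which was 93.0% of the WT length and 74.0% of the Utx-cKO length. The greater length in the Utx-cKO list lay at the Lce and fused S100 genes. From Lce6a to Lce1m coverage was 26.35 kb (6.36%) in WT and 40.75 kb (9.84%) in Utx-cKO, and from Crnn to Tchhl1 it was 12 kb (3.67%) and 19.65 kb (6.01%). The greater length from Crnn to Tchhl1 rested on the weak Utx-cKO peak at the Tchh start, 8800 bp wide, which was lost at the common floor of total signal. Without that peak, the block had 10850 bp under the remaining Utx-cKO peak, against 12000 bp under the WT peak. From S100a1 to S100a9 coverage was 17.3 kb (9.38%) in WT and 16.8 kb (9.11%) in Utx-cKO. Between Lor and Ivl, and between S100a11 and S100a10, it was 0 in both lists. Of the covered length, 12.3% in WT and 12.5% in Utx-cKO lay inside protein-coding genes, which take up 11.5% of the span.

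With peaks at or above a common floor of total signal, the difference in covered length was 9.45 kb. With 100 kb added on both sides of the span, it turned to -1.3 kb, because a WT peak near Tdpoz2 without a Utx-cKO counterpart came into the window.

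Coverage of the complex was below that of its chromosome and of the autosomes in both lists. Chromosome 3 had 3.98% of its gene span under WT peaks and 4.14% under Utx-cKO peaks, and the autosomes together over 5.17% and 5.60%. Coverage varies widely at this scale: of 790 adjoining autosomal windows as long as the complex, 37.2% in WT and 41.8% in Utx-cKO were covered less. The median window was covered over 3.77% in WT and 3.98% in Utx-cKO. Other tandem gene clusters are given for comparison. The type I keratin cluster on chromosome 11 was covered over 2.74% in WT and 6.02% in Utx-cKO, with 3 and 5 of 27 keratin genes marked. The type II cluster on chromosome 15 was covered over 13.2% and 16.5%, with 5 and 6 of 26 genes marked. Both counts of keratin genes (11.1% and 18.5% for type I, 19.2% and 23.1% for type II) lay near the 14.4% and 15.7% of all autosomal genes. Of 4 beta-defensin clusters, that on chromosome 14, 71.1 kb long, had 34.8 kb under WT peaks and 27.5 kb (38.6%) under Utx-cKO peaks, and that on chromosome 2 was covered over 17.4% in WT and 25.9% in Utx-cKO. On chromosome 8, one cluster was covered over 1.88% in WT and 0 in Utx-cKO, and the other over 0 in both. Coverage was thus higher in Utx-cKO in some clusters and lower in others, and the differences were not tested.

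**Figure D4:**
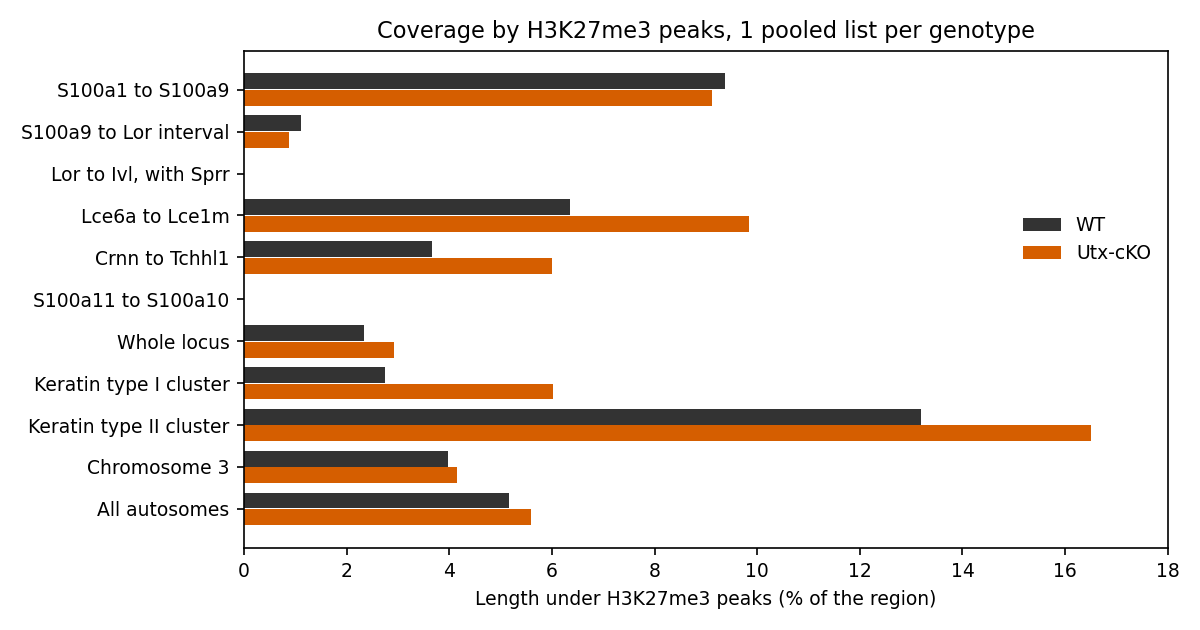
Share of each region's length under H3K27me3 peaks in percent, for blocks of the complex, the whole complex, both keratin clusters, the gene span of chromosome 3 and all autosomal gene spans, 1 bar per pooled list and no error. The complex stands at 2.33% in WT and 2.92% in Utx-cKO, and the block from Lor to Ivl at 0 in both.

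The promoters of the members were poor in CpG, the dinucleotide that is dense in many Polycomb-marked promoters. Promoter windows of 300 bases, 250 before to 50 after the start, were taken from RefSeq (GRCm38.p6) and matched for 46 of 49 members, S100a14, Lce1f and S100a10 being unmatched. The median member window held 1 CpG, against 14 over 16457 autosomal protein-coding genes. Among autosomal genes marked in WT the median was 15, and among those marked in Utx-cKO 14. The 6 marked members held 0 to 2 CpG each: S100a9 and Lce3a 2, Lce3b, Lce3d and Tchh 1, and Lce3c 0. The most CpG, 11 to 15, stood at S100a1, S100a13 and S100a11, which were not marked. The median G+C share was 47.2% over the members and 56.7% over all autosomal genes, and that of Tchh was 28.7%.

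**Figure D5:**
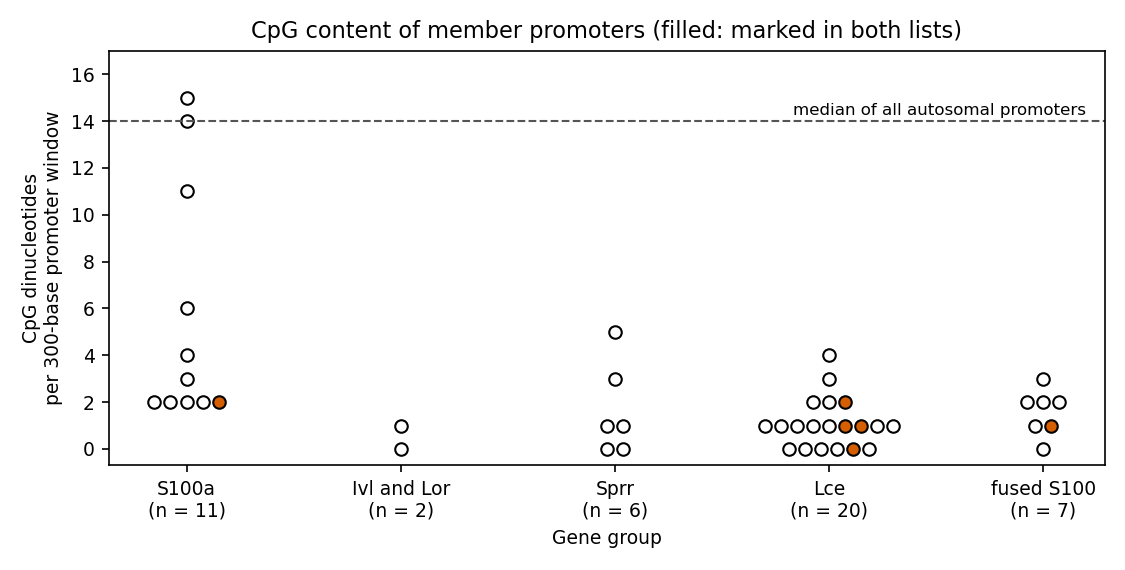
CpG dinucleotides per promoter window for the 46 members with a window, by gene group, with members marked in both lists filled and unmarked members open. The dashed line is the median of 14 over autosomal protein-coding genes, and the 6 marked members lie between 0 and 2.

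The bases before the start of 5 members show this, and let a marked and an unmarked Lce3 gene be compared. They are given 5′ to 3′ on the gene's strand, up to the base before the start, with CpG dinucleotides and matches to the motifs TATAAA and TGANTCA in capitals. S100a9 (chr3:90695722-90695971, minus strand), Lce3d (chr3:92957140-92957389, plus strand) and Tchh (chr3:93442080-93442329, plus strand) were marked, and Lce3e (chr3:92966811-92967060, plus strand) and Lor (chr3:92083143-92083392, minus strand) were not.
S100a9: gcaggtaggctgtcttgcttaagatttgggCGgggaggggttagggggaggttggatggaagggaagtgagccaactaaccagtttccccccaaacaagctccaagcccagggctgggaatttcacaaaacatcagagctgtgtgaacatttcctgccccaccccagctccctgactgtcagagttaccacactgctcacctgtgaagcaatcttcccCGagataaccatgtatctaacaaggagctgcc
Lce3d: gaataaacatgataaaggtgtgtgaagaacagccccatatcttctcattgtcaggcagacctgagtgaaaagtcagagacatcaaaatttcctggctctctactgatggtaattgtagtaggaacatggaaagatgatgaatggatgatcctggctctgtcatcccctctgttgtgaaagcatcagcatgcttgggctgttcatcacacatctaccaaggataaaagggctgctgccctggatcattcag
Lce3e: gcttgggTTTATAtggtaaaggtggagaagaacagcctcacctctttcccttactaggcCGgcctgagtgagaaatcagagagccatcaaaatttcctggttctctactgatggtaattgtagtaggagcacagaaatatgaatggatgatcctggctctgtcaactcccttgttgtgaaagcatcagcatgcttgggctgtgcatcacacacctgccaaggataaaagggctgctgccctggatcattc
Tchh: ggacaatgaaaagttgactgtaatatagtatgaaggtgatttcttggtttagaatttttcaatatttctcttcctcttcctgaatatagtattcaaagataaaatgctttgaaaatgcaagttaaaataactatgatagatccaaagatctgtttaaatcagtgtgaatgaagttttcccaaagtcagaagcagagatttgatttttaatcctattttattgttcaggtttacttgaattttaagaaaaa
Lor: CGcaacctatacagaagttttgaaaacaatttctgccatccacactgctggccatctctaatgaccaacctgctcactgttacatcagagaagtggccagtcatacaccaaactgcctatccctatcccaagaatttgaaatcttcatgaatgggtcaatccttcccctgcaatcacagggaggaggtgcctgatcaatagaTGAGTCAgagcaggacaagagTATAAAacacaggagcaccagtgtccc

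Lce3d, marked in both lists, and Lce3e, marked in neither, had the most similar promoters among the Lce3 genes, with 83.8% identical positions in a global alignment of their 300-base windows. Windows of Lce3c and Lce3e were 79.0% identical and those of Lce3c and Lce3d 77.2%. Lce3a was at most 59.5% identical to another window of the complex. Of 46 members, 1 had a window at least 90% identical to that of another gene of the complex, namely Sprr2a1, whose window was 100% identical to that of Sprr2a2. Below that cut came Sprr2d, 89.1% identical to Sprr2e, and Lce1g and Lce1i, 86.0% identical to each other. How reads from such copies were placed is not stated in the labels or headers. The absence of peaks at Sprr2a1 is therefore uncertain, and that at the other similar genes may be too.

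The motif TATAAA, the core of the TATA box, was searched on both strands, and TGANTCA, the AP-1 type motif, reads the same on both; neither motif contains the other. TATAAA stood in 17 of 46 member windows (37.0%), against 13.5% of all autosomal windows, and TGANTCA in 11 (23.9%), against 7.12%. In Lor, TGANTCA began 48 bases and TATAAA 27 bases before the start. TGANTCA was present in the windows of Ivl, Lor, Flg, Flg2, Rptn, Crnn, Tchhl1, Sprr1a, Sprr1b, Sprr2d and S100a11. None of the 6 marked members held it, while 11 of 40 unmarked ones did, and for TATAAA it was 1 of 6, S100a9, and 16 of 40. The TATAAA match of S100a9 began at the start itself, so it lies in the searched window but not in the bases printed. Both motifs also differed by gene group, and 4 of the 6 marked members were Lce genes. TGANTCA stood in 0 Lce windows, marked or unmarked, against 5 of 7 fused S100, 3 of 6 Sprr and 1 of 11 S100a windows. TATAAA stood in 4 Lce windows, 4 of 7 fused S100, 4 of 6 Sprr and 3 of 11 S100a windows. The counts by marking therefore cannot be separated from gene group, and a link of either motif to the mark was not tested. A match describes letters in the window only.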

How the data were processed

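H3K27me3 CUT&RUN peaks of mouse epidermis were deposited by the authors as 1 list per genotype, called with SEACR (spelt SECAR) on data merged over all samples of a group, per the file headers. Each peak's maximum signal (highest coverage) and its score, the total signal summed over the peak, are the authors' deposited values, with scale, control and threshold not given in the sources used here. The tools bedtools 2.27.1, deepTools, SAMtools 1.9 and Bowtie2 2.3.4.3, and the builds mm10, GRCm38 and sacCer3, are named per the submitters' processing notes. Per the labels, IgG libraries exist; they were not analysed here.

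Peak starts were written 1-based, and gene borders and promoters came from RefSeq (GRCm38.p6). A gene was marked by a peak within 2 kb of either end. Overlap meant at least 1 bp. Coverage, distances and exact Clopper-Pearson intervals were computed with Python 3.11.15, pandas 2.3.3 and SciPy 1.17.1, after the interval functions were tested on simulated data. Promoters were aligned with Biopython 1.88. Named genes were all members, marked genes of the other lists, and neighbours of the locus. The members and lists were chosen with earlier results of these data known. Alternatives were other marking rules, signal floors, merging within 5 kb and other borders of the locus. Depth per library is unknown. No test between genotypes was possible with 1 pooled list each.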

Additional observations from a re-analysis of the deposited data

How the results depend on the processing

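The 3 marked places were found in both lists under the other marking rules, except that Tchh was not marked in WT with a peak required within 2 kb of a transcription start. The count of 6 marked members stayed at 5 or 6, except that the top 50% of total signal left 3 members (S100a9, Lce3c and Lce3d) on 2 peaks in WT, and 5 members on 3 peaks in Utx-cKO, without Tchh in either. Merging peaks within 5 kb left 3 peaks in Utx-cKO, since it closed the intervals of 2.7 and 3.2 kb, and 4 in WT. Without the S100a genes the covered length was 38.35 kb in WT and 60.4 kb in Utx-cKO. The difference in covered length, 18.25 kb, was 9.45 kb at the common floor and also with equal numbers of peaks (an alternative chosen after seeing the data), and -1.3 kb with 100 kb added on both sides. No paired analysis was possible because each list pools its animals, and for the same reason no replicate could be left out. Unknown depth and calling thresholds limit what the lists show of weak domains such as that at the Tchh start.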

Other observations

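Beyond the last member, the WT list held a peak at Tdpoz2, the nearest annotated protein-coding gene on that side, chr3:93644051-93663600, 79.4 kb from S100a10. The next Utx-cKO peak on that side lay 830.1 kb from S100a10. On the other side, the first peak ended at the same base in both lists, 674.7 kb before S100a1.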
